A study of Mus musculus with 10 samples.

Results

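The genes described here are Moxd1 and Cyb561, with 4 relatives, Dbh, Pam, Cyb561d1 and Cyb561d2, 6 genes among the 55401 of the count tables. Moxd1 and Cyb561 were chosen by their measured fold change, a strong fall in the liver of mice lacking the thyroid hormone receptor beta gene Thrb. Their difference between genotypes is therefore given as a description, without a test. The relatives were taken by family, and all 6 symbols matched 1 gene identifier each.

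The data are bulk liver RNA-seq libraries from 5 wild-type (WT) and 5 liver-specific THRB knockout (THRB-KO) C57Bl6/J mice, the WT animals being littermates of the knockouts. The knockouts, written Thrb hep-/- in the study, came from Thrb-loxP/loxP mice crossed with Afp-Cre mice. Afp, the alpha-fetoprotein gene, is active in fetal liver progenitors, from which both hepatocytes and bile duct cells arise. All mice had standard chow, water at will and a light-dark cycle, and no treatment is listed. Whether the WT littermates carried loxP alleles or Cre, and the age, sex and collection time of the mice, are not given in the sources used here. The labels number the samples 1 to 5 within each genotype. They do not say more on how the samples were taken, so the p-values measure the spread between these samples.

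Total counts ranged from 26477195 to 28590704 per library. Levels are given as normalized CPM, counts divided by the effective library size (trimmed-mean scaling) and put on a common scale of CPM. Of the 55401 genes, 12234 had at least 1 CPM in at least 5 libraries and were tested by the quasi-likelihood method of edgeR, and p-values were adjusted after Benjamini and Hochberg. A gene was called at an adjusted p under 0.15, the threshold of the study. Called genes numbered 499 (4.08% of those tested), of which 185 (1.51%) were higher and 314 (2.57%) lower in THRB-KO. Thrb itself, the receptor gene targeted by the deletion, was at 33.3 ± 0.643 normalized CPM in WT and 26.7 ± 1.93 in THRB-KO (SD, n = 5 each), a log2 fold change of -0.32 (SE 0.067, adjusted p = 0.036, edgeR). Every THRB-KO library lay below every WT library for Thrb, a pattern seen in 2.26% of the genes tested. Counts over the whole gene remained. The 6 hepatocyte markers summed to between 83567 and 126094 normalized CPM in WT and between 101320 and 113008 in THRB-KO.

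Libraries 1, 4 and 5 of THRB-KO stood apart in transcripts of the adrenal gland. Cyp11b1, which encodes a steroid hydroxylase of the adrenal cortex, had no counts in any WT library or in THRB-KO 2 and 3. It had 667, 167 and 96 counts in THRB-KO 1, 4 and 5. The 8 adrenal cortex genes, listed after these values were seen, summed to between 79 and 278 counts in WT. They summed to 6311 counts in THRB-KO 1, 134 in THRB-KO 2, 141 in THRB-KO 3, 1711 in THRB-KO 4 and 1029 in THRB-KO 5. Results are therefore also given without these 3 libraries, where 185 genes (1.51%) were called.

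Copper monooxygenases of the Dbh family use copper and ascorbate to add oxygen to a substrate, and ascorbate is oxidised in the reaction. Dbh, dopamine beta-hydroxylase, makes noradrenaline from dopamine, and Pam amidates the ends of peptide hormones. Moxd1 resembles Dbh in sequence, and its substrate is not established. Cytochrome b561 proteins carry electrons from ascorbate across membranes. Cyb561 is the founding member, which restores ascorbate inside the secretory granules where Dbh and Pam work, and Cyb561d1 and Cyb561d2 share its membrane domain. The liver of the mouse makes ascorbate itself, and is the main source of the copper protein ceruloplasmin.

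The promoters of 4 of the 6 genes were in the RefSeq promoter table on GRCm38.p6, from 250 bases before to 50 bases after the start site. Cyb561 and Cyb561d1 had no entry there, so their promoters were not searched. The promoters of the other genes were searched on both strands for AGGTCA, a half-site of nuclear receptors such as the thyroid hormone receptor, for the GC box GGGCGG and for TATAAA. These words occur in 16.3%, 35.7% and 13.6% of the 32851 promoters of that table, respectively. The promoters shown are those of Moxd1, the gene with the widest difference, of Pam, the relative whose groups did not overlap, and of Cyb561d2, which held an AGGTCA. Capitals mark the searched words on either strand.
Moxd1, chr10:24223267-24223566, plus strand: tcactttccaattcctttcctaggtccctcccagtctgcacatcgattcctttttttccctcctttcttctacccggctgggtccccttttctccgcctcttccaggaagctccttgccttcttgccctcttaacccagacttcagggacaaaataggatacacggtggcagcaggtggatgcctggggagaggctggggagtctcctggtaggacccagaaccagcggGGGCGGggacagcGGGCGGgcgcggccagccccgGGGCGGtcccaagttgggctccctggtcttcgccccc
Pam, first start site, chr1:98095597-98095896, minus strand: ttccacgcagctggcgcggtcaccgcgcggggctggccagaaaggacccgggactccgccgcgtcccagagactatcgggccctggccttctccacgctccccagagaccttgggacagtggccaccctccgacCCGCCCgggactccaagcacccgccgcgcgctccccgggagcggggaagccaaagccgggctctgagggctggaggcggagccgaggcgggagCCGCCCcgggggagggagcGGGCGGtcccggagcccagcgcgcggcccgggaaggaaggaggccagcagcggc
Cyb561d2, first start site, chr9:107542144-107542443, minus strand: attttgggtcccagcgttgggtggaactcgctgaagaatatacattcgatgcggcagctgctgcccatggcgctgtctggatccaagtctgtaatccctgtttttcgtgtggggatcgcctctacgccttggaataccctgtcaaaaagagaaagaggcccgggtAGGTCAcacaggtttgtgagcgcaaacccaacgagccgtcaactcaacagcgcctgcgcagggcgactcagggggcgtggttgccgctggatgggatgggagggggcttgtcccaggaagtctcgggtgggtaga

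The Moxd1 promoter held 3 GC boxes, starting at positions -21, -8 and 14 relative to the start site, and neither AGGTCA nor TATAAA. Pam also held 3 GC boxes, at -116, -23 and -4 from its first start site, and no AGGTCA. Cyb561d2 had 1 AGGTCA at -85 from its first start site and no GC box there. The window of its second start site held none of the 3 words. None of the 3 words was found in the Dbh promoter. The words describe these windows only.

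Moxd1 (ENSMUSG00000020000, GRCm38 chr10:24223517-24302790, plus strand) was the copper monooxygenase with the highest level per length in WT liver and was almost without counts in THRB-KO. The WT libraries 1 to 5 held 824, 3605, 818, 1150 and 1572 counts, or 31.2, 126, 29.2, 44.9 and 58.8 normalized CPM. The THRB-KO libraries held 5, 6, 0, 6 and 31 counts, or 0.174, 0.225, 0, 0.199 and 1.10 normalized CPM. The groups did not overlap, and the highest WT level was 4.31 times the lowest. The library THRB-KO 5 stood above the other 4 knockouts. In THRB-KO 3 the absence of counts allows a level of up to 0.103 normalized CPM, the value of 3 counts there.

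The fitted log2 fold change of Moxd1 was -7.41 (SE 0.73). Moxd1 passed the filter on low counts through its WT libraries. Summed over libraries, 7969 counts in WT stood against 48 in THRB-KO, a ratio of 176 after scaling (95% interval 132 to 238, counting error only). The ratio depended on THRB-KO 5, without which it was 398 (248 to 683). It was 122 (91.8 to 166) without WT 2, the highest WT library, 157 (116 to 216) without THRB-KO 1, and 548 (252 to 1493) without THRB-KO 1, 4 and 5. Because the tissue is bulk liver, fewer cells of a type and less RNA per cell cannot be told apart for this or any gene here.

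**Figure D1:**
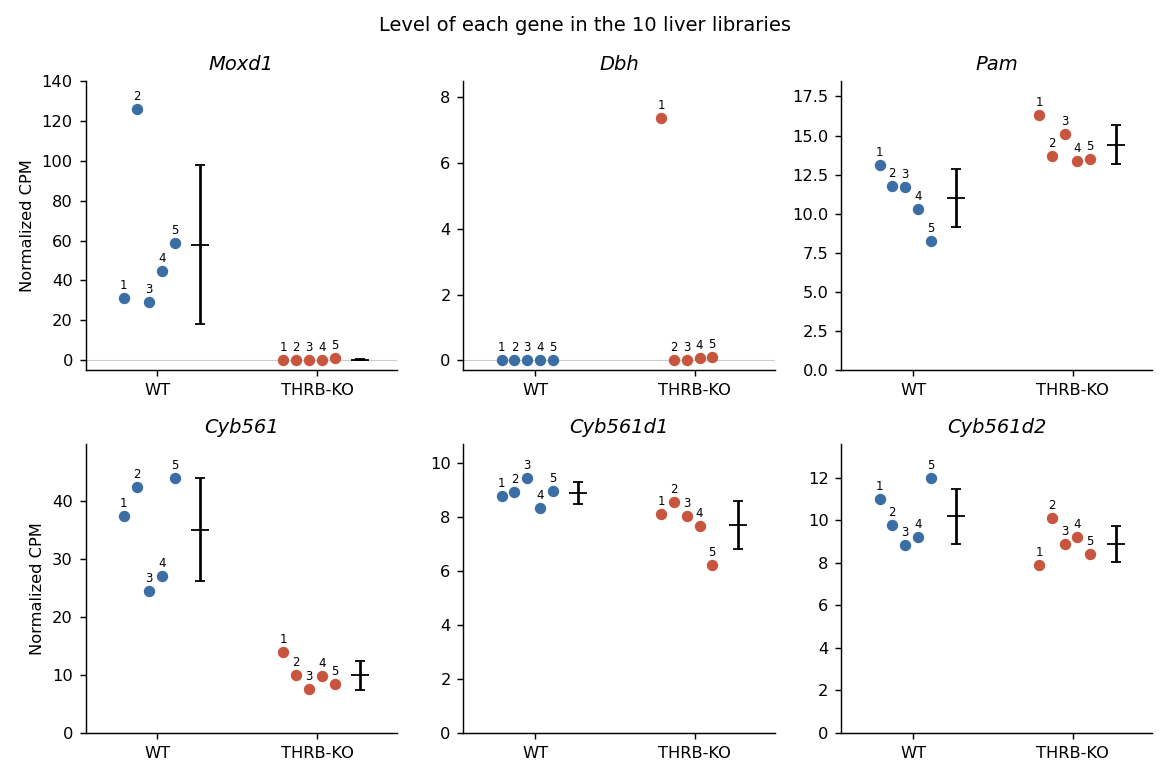
Normalized CPM (vertical axis, linear) of the 6 genes in each library of WT (blue) and THRB-KO (red), with the library number above each point and black bars for mean ± SD (n = 5; not drawn for Dbh). WT and THRB-KO separate for Moxd1, Cyb561 and Pam, and overlap for Cyb561d1 and Cyb561d2, while Dbh is high in THRB-KO 1 alone, at 7.36.

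Dbh (ENSMUSG00000000889, chr2:27165233-27183200, plus strand) had no counts in any WT library, which allows a level of up to 0.117 normalized CPM in the least sensitive of them. The THRB-KO libraries held 212, 0, 0, 2 and 3 counts, so that 97.7% of the knockout counts came from THRB-KO 1. Dbh did not pass the filter and has no test in the main comparison. Fitted without a filter, its log2 fold change was 8.37 (SE 4.37, adjusted p = 0.61, edgeR), and without THRB-KO 1 it was 3.42 (adjusted p = 0.35). Neither value is a bound, since WT was at 0.

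Among the other enzymes of catecholamine synthesis, Th and Pnmt had most of their counts in the same library. Ddc was counted in all libraries, at 27.3 to 62.8 normalized CPM in WT and 34.0 to 85.7 in THRB-KO. Th, tyrosine hydroxylase, had 211 counts in THRB-KO 1, 4 in THRB-KO 4 and none elsewhere. Pnmt, which makes adrenaline, had 73 counts in THRB-KO 1 and 2 in THRB-KO 4. The granule proteins Chga, Chgb and Scg2 had 637, 903 and 352 counts in THRB-KO 1, against at most 24 in any other library. The neuroendocrine markers summed to between 0.151 and 0.465 normalized CPM in WT and up to 74.4 in THRB-KO. Dbh was thus high in THRB-KO 1, where transcripts of catecholamine cells and of the adrenal cortex were also high. The adrenal cortex transcripts were raised in THRB-KO 4 and 5 too, where Dbh had 2 and 3 counts. The part of these transcripts in the Dbh level was not tested.

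**Figure D2:**
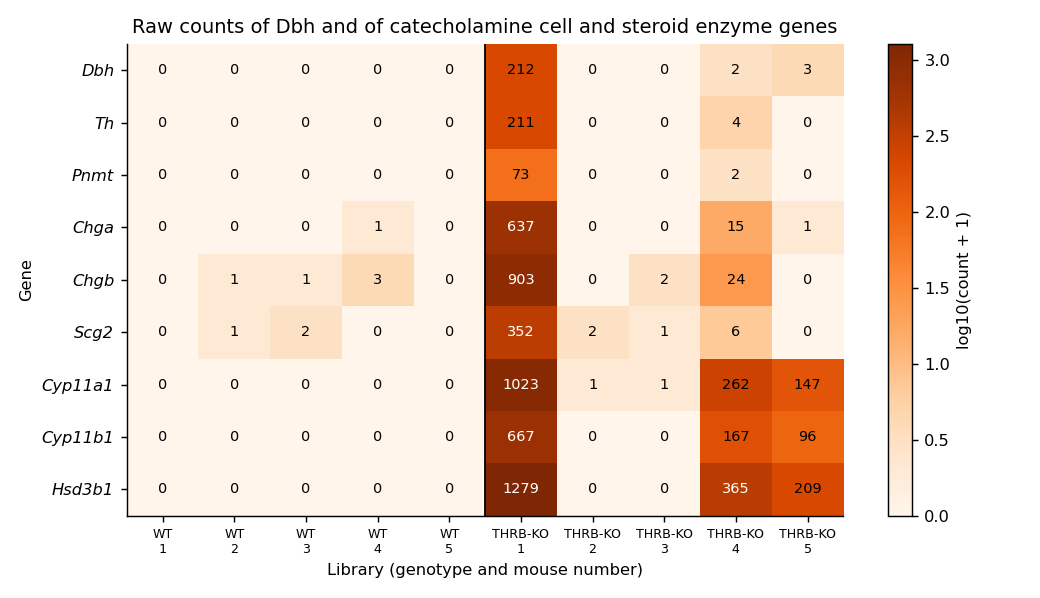
Raw counts, printed in each cell and shaded by log10(count + 1), of Dbh, 5 catecholamine cell genes and 3 steroid enzyme genes (rows) in the 10 libraries (columns). Dbh, Th, Pnmt, Chga, Chgb and Scg2 reach 73 to 903 counts in THRB-KO 1, while Cyp11a1, Cyp11b1 and Hsd3b1 are also counted in THRB-KO 4 and 5.

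Pam (ENSMUSG00000026335, chr1:97795114-98095646, minus strand) stood higher in THRB-KO, opposite in direction to Moxd1, and narrowly missed the threshold. The WT libraries 1 to 5 were at 13.1, 11.8, 11.7, 10.3 and 8.23 normalized CPM, and the THRB-KO libraries at 16.3, 13.7, 15.1, 13.4 and 13.5. Every THRB-KO library lay above every WT library, a pattern seen in 1.38% of the genes tested, and groups that did not overlap in either direction were seen in 3.64%. The gap between the groups was small, from 13.1 in WT 1 to 13.4 in THRB-KO 4. The means were 11.0 ± 1.84 and 14.4 ± 1.25 (SD, n = 5 each), a log2 fold change of 0.39 (SE 0.12, 95% interval 0.13 to 0.64, adjusted p = 0.155, edgeR).

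Pam passed the threshold in 6 of 17 alternatives and missed it in 11, with adjusted p between 0.066 and 1. Among the alternatives that called it were DESeq2, which called 7.23% of the genes tested, and limma-voom, which called 4.34%. Its log2 fold change was 0.34 (adjusted p = 0.207) without THRB-KO 1, the library with the highest Pam level and with the adrenal transcripts, and 0.39 (adjusted p = 0.395) without THRB-KO 1, 4 and 5. The 7 markers of stellate cells and fibroblasts all had positive log2 fold changes, with a median of 0.23. Of them 1, Des, was called higher, where 1.51% of all genes tested were. Without THRB-KO 1, 4 and 5 their median was 0.47, and 2 of the 7, Col1a1 and Col3a1, were negative. There 1 marker was called higher, where 0.490% of all genes tested were, and Des was not called (adjusted p = 0.33, edgeR). In all libraries the 7 markers summed to between 86.4 and 133 normalized CPM in WT and between 118 and 140 in THRB-KO. Their part in the Pam difference was not tested. The gene shares 188 bases of exon with B230216N24Rik, which had at most 7 counts in a library, and reads over both were not counted.

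Cyb561 (ENSMUSG00000019590, chr11:105933702-105953336, minus strand) was present in every library and lower in every THRB-KO library. The WT libraries 1 to 5 were at 37.4, 42.3, 24.5, 27.0 and 43.9 normalized CPM, and the THRB-KO libraries at 14.0, 9.97, 7.58, 9.77 and 8.38. The groups did not overlap, and the lowest WT library, WT 3, was above the highest knockout, THRB-KO 1. The means were 35.0 ± 8.82 and 9.94 ± 2.47 (SD, n = 5 each), so that THRB-KO stood at 28.4% of WT, with a log2 fold change of -1.82 (SE 0.20). The level was 25.5% of WT without THRB-KO 1, and the log2 fold change was -1.99 without THRB-KO 1, 4 and 5. Unlike Moxd1, Cyb561 kept between 221 and 403 counts in each knockout. It shares 377 bases of exon with Gm9910 on the other strand, which had at most 4 counts in any library, and the counting did not use strand.

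The relatives of Cyb561 had log2 fold changes near 0. Cyb561d1 (ENSMUSG00000048796, chr3:108195687-108201212, minus strand) was at 8.78, 8.92, 9.44, 8.32 and 8.94 normalized CPM in WT and at 8.09, 8.55, 8.03, 7.65 and 6.22 in THRB-KO. The groups overlapped only between THRB-KO 2 and WT 4. The log2 fold change was -0.20 (SE 0.10, 95% interval -0.42 to 0.01, adjusted p = 0.4, edgeR), and -0.09 without THRB-KO 1, 4 and 5.

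Cyb561d2 (ENSMUSG00000037190, chr9:107539007-107542193, minus strand), a transmembrane reductase, was at 11.0, 9.79, 8.86, 9.22 and 12.0 normalized CPM in WT and at 7.88, 10.1, 8.89, 9.24 and 8.42 in THRB-KO. The groups overlapped, with THRB-KO 2, 3 and 4 within the WT range. The log2 fold change was -0.19 (SE 0.11, 95% interval -0.42 to 0.04, adjusted p = 0.47, edgeR). Neither relative was called under any of the 17 alternatives. Of the 6 genes, 5 passed the filter on low counts. None of the 3 relatives among them, Pam, Cyb561d1 and Cyb561d2, was called by edgeR, where 4.08% of all genes tested were called. Of these 3, 1, Pam, was at an unadjusted p under 0.05, where 13.6% of all genes tested were. Pam was also the 1 called by DESeq2 and limma-voom, which called 7.23% and 4.34% of all genes tested.

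**Figure D3:**
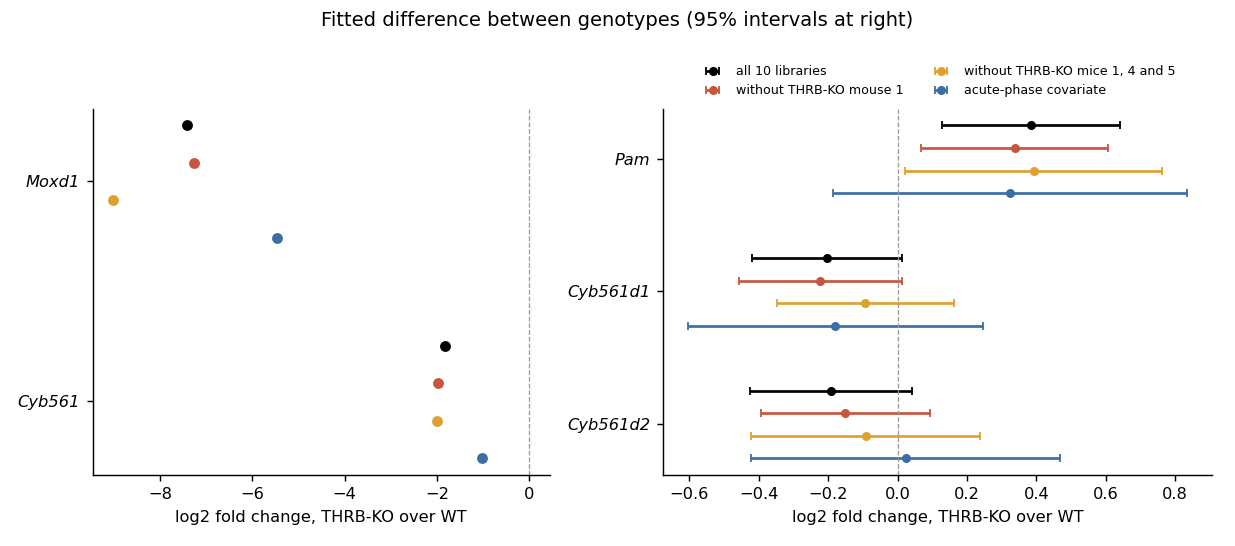
Fitted log2 fold change, THRB-KO over WT (horizontal axis), for Moxd1 and Cyb561 (left, points only) and Pam, Cyb561d1 and Cyb561d2 (right, a narrower scale, with 95% intervals), in all 10 libraries and in 3 other fits. Moxd1 and Cyb561, chosen by this difference, are at -9.01 to -5.45 and -1.99 to -1.01, and the intervals of Cyb561d1 and Cyb561d2 cross 0 in each.

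Levels per kilobase of merged exon put the genes on one scale. In WT the order was Moxd1 (mean 18.2 normalized CPM per kilobase, SD 12.5), Cyb561 (9.59, SD 2.41), Cyb561d2 (5.15, SD 0.657), Cyb561d1 (1.75, SD 0.0784), Pam (0.927, SD 0.155) and Dbh (0). Moxd1 and Cyb561 were neighbours that overlapped, at 9.14 to 39.4 and 6.71 to 12.0. The ratio of Moxd1 to Cyb561 within a WT library had a median of 1.53 and ranged from 0.953 to 3.41. In WT 1 Moxd1 was below Cyb561, at 9.75 and 10.2. In THRB-KO the order was Cyb561d2 (4.51, SD 0.429), Cyb561 (2.72, SD 0.677), Cyb561d1 (1.52, SD 0.175), Pam (1.21, SD 0.105), Dbh (0.560, set by THRB-KO 1) and Moxd1 (0.106, SD 0.135). Cyb561d1 and Pam overlapped there, at 1.22 to 1.68 and 1.12 to 1.37.

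Cyb561 was above Cyb561d2 per kilobase in every WT library, with ratios of 1.49 to 2.33, and below it in every THRB-KO library, with ratios of 0.461 to 0.959. Per kilobase of the longest transcript the ratios were 1.80 to 2.81 in WT and 0.556 to 1.16 in THRB-KO, where THRB-KO 1 alone was above 1. The place of Pam also depended on the length used. Per kilobase of its longest transcript it was at 2.69 in WT, above Cyb561d1 at 1.90.

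Acute-phase genes, which hepatocytes raise in inflammation, were lower in THRB-KO, as were Moxd1 and Cyb561. Of 18 such genes, 13 were called lower in THRB-KO, where 2.57% of all genes tested were, with a median log2 fold change of -1.12 against 0.001 over all genes tested. Their mean log2 CPM was 10.14, 11.05, 9.33, 9.75 and 10.60 in WT 1 to 5 and 8.69, 9.12, 8.12, 8.02 and 8.58 in THRB-KO 1 to 5. The groups did not overlap in this mean. Without THRB-KO 1, 4 and 5, in a fit with 2 knockouts, 1 of the 18 genes was called lower, where 1.02% of all genes tested were. The median log2 fold change of the 18 genes was then -1.0.

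Markers of immune cells were counted in the same libraries. All 6 Kupffer cell markers had negative log2 fold changes, with a median of -0.79. Called were 0 by edgeR, 2 by DESeq2 and 0 by limma-voom, where 4.08%, 7.23% and 4.34% of all genes tested were. An unadjusted p under 0.05 was seen for 3 of the 6, against 13.6% of all genes tested. The 6 markers summed to between 80.3 and 331 normalized CPM in WT and between 92.2 and 199 in THRB-KO. Of 5 markers of lymphocytes and neutrophils, 2 were tested, both with negative log2 fold changes. S100a8, a calcium-binding protein gene of neutrophils, was the 1 called lower, where 2.57% of all genes tested were. Its level was low, at 2.92 ± 2.48 normalized CPM in WT and 0.458 ± 0.395 in THRB-KO (log2 fold change -2.67, adjusted p = 0.13, edgeR). Without THRB-KO 1, 4 and 5 it was not called (-2.58, adjusted p = 0.41, edgeR). These 5 markers summed to between 6.99 and 20.5 normalized CPM in WT and between 4.97 and 8.20 in THRB-KO. The part of these cells in the differences of Moxd1, Cyb561 and the acute-phase genes was not tested.

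Within WT, the library lowest in the acute-phase mean, WT 3, was also lowest in Moxd1 and in Cyb561, and the 2 highest, WT 2 and WT 5, were the 2 highest in both. The orders within WT were not the same throughout. WT 1 was below WT 4 in Moxd1 (31.2 and 44.9 normalized CPM) but above it in the acute-phase mean (10.14 and 9.75). Within THRB-KO the orders differed too. Cyb561 was highest in THRB-KO 1, and the acute-phase mean in THRB-KO 2. With the acute-phase mean as a covariate, the log2 fold change was -5.45 (SE 0.78) for Moxd1 and -1.01 (SE 0.28) for Cyb561. Since the mean separates the genotypes, the covariate also carries genotype, and the part of the acute-phase genes in either difference cannot be told apart from it.

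**Figure D4:**
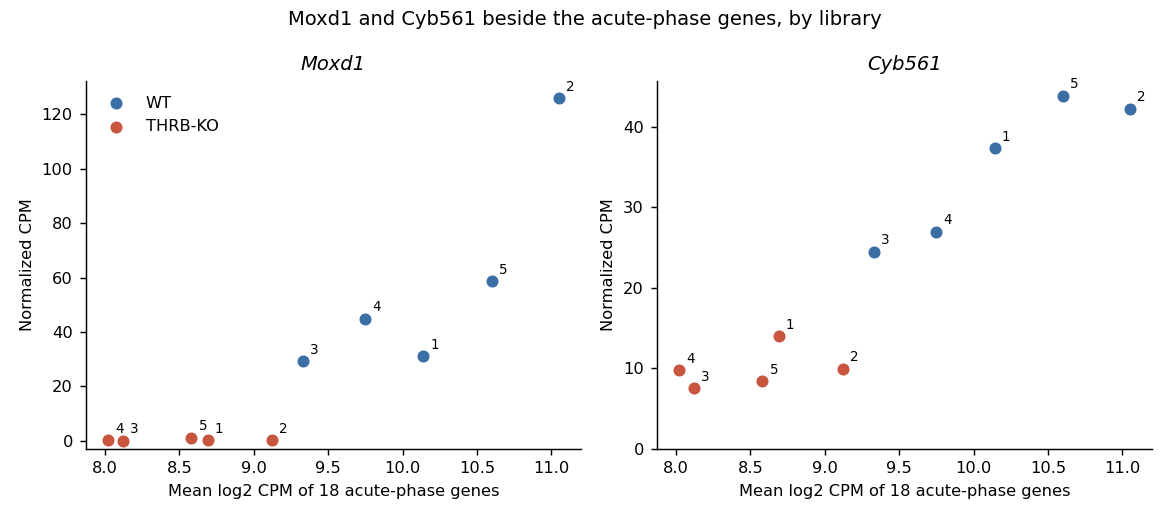
Normalized CPM of Moxd1 (left) and Cyb561 (right) against the mean log2 CPM of 18 acute-phase genes, 1 point per library with its number, for WT (blue) and THRB-KO (red). The genotypes separate on both axes, and in WT the libraries 2 and 5 are high in all 3 measures.

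The genes beside Moxd1 and Cyb561 on the chromosome were measured too. Of 11 annotated genes within 100 kb of either, 4 passed the filter. None was called by edgeR, DESeq2 or limma-voom, and 0 were at an unadjusted p under 0.05. Over all genes tested these shares were 4.08%, 7.23%, 4.34% and 13.6%, so 4 genes are too few to set apart from them. Stx7, a syntaxin of endosomes near Moxd1, had a log2 fold change of -0.16 (adjusted p = 0.51, edgeR). Near Cyb561, the log2 fold change was 0.02 for Tanc2 (95% interval -0.47 to 0.51), -0.23 for Ace, the angiotensin-converting enzyme (-0.62 to 0.16), and close to 0 for Dcaf7 (-0.27 to 0.27).

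The genes whose profile over the 10 libraries was most like that of Moxd1 were found by the root mean square difference of centred log2 CPM. Profiles were centred over both genotypes, so this measure favours genes with a large fall in THRB-KO, the value by which Moxd1 and Cyb561 were chosen. The likeness is therefore a description only. For Moxd1 the closest were Mup17, a major urinary protein gene (1.47), Saa1, an acute-phase serum amyloid gene (1.79), and Prtn3, a neutrophil protease gene (1.80). Mup17 was at 735 ± 556 normalized CPM in WT and 3.59 ± 1.88 in THRB-KO, and has near-identical copies among which reads are hard to place. For Cyb561 they were Gm15318 (0.29), Lrg1, an acute-phase glycoprotein gene (0.30), and Isyna1, which starts inositol synthesis (0.32). Lrg1 was at 1463 ± 251 in WT and 538 ± 209 in THRB-KO, and Isyna1 at 21.0 ± 4.63 and 6.12 ± 1.48.

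Other genes of copper and ascorbate biology were described by lists. Of 5 further family relatives, 2 passed the filter. None was called by edgeR, DESeq2 or limma-voom, against 4.08%, 7.23% and 4.34% of all genes tested. An unadjusted p under 0.05 was seen for 0, against 13.6% of all genes tested. The lower p was that of Cyb561a3, a lysosomal cytochrome b561 (log2 fold change -0.19, adjusted p = 0.46). Moxd2 and Frrs1l had no counts in any library.

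Of 17 genes of copper transport and chaperones, 15 were tested, with a median log2 fold change of 0.02, and 1 was called in each direction, where 1.51% of all genes tested were called higher and 2.57% lower. Mt1, a metallothionein that binds copper and zinc, was at 348, 323, 76.1, 272 and 391 normalized CPM in WT and 30.2, 72.9, 16.7, 12.2 and 88.2 in THRB-KO. Its groups overlapped through WT 3 and THRB-KO 5, and its log2 fold change was -2.68 (SE 0.64, adjusted p = 0.082, edgeR). Cox19, a mitochondrial assembly factor of cytochrome oxidase, was higher in THRB-KO (30.2 ± 3.05 and 41.0 ± 7.42, log2 fold change 0.44, adjusted p = 0.091, edgeR). Without THRB-KO 1, 4 and 5 the log2 fold change was -2.65 for Mt1 (adjusted p = 0.31) and 0.37 for Cox19 (adjusted p = 0.29), and neither was called. Over 17 alternatives, Mt1 was not called in 6 and Cox19 was not called in 9. With the acute-phase covariate the log2 fold change was -0.43 for Mt1 and 0.23 for Cox19.

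Of 16 other copper enzymes, 10 were tested, with a median log2 fold change of 0.17, and 1 was called, where 4.08% of all genes tested were. It was Cp, ceruloplasmin, a copper ferroxidase that is also an acute-phase protein (1563 ± 363 and 1092 ± 111 normalized CPM, log2 fold change -0.52, adjusted p = 0.12, edgeR). Cp was not called in 9 of 17 alternatives, with adjusted p up to 1. In 8 of those 9 its log2 fold change was between -0.53 and -0.38, and with the acute-phase covariate it was 0.14.

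Of 16 genes of ascorbate synthesis, transport and recycling, 13 were tested, with a median log2 fold change of 0.08, and 1 was called, where 4.08% of all genes tested were. Slc23a1, a sodium-dependent ascorbate transporter, was at 107, 108, 87.0, 94.8 and 142 normalized CPM in WT and 71.4, 59.8, 42.7, 35.9 and 71.5 in THRB-KO. Every THRB-KO library lay below every WT library, a pattern seen in 2.26% of the genes tested. Slc23a1 had a log2 fold change of -0.94 (SE 0.20, adjusted p = 0.049, edgeR). It was called in 16 of 17 alternatives, including the fit without THRB-KO 1, 4 and 5 (-1.06, adjusted p = 0.098), and not with the acute-phase covariate (-0.23).

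Of 16 dioxygenases that use ascorbate, 12 were tested and none was called by edgeR, where 4.08% of all genes tested were. DESeq2 and limma-voom called 1 each, where they called 7.23% and 4.34% of all genes tested. An unadjusted p under 0.05 was seen for 2, against 13.6% of all genes tested. The lowest p was that of Egln3, a prolyl hydroxylase of hypoxia-inducible factors (14.4 and 18.4 normalized CPM, log2 fold change 0.36, adjusted p = 0.16, edgeR). Of 9 genes of catecholamine synthesis and breakdown, 7 were tested. None was called by edgeR, DESeq2 or limma-voom, against 4.08%, 7.23% and 4.34% of all genes tested. An unadjusted p under 0.05 was seen for 1, against 13.6% of all genes tested. That was Maoa, monoamine oxidase A (log2 fold change 0.38, adjusted p = 0.32).

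**Figure D5:**
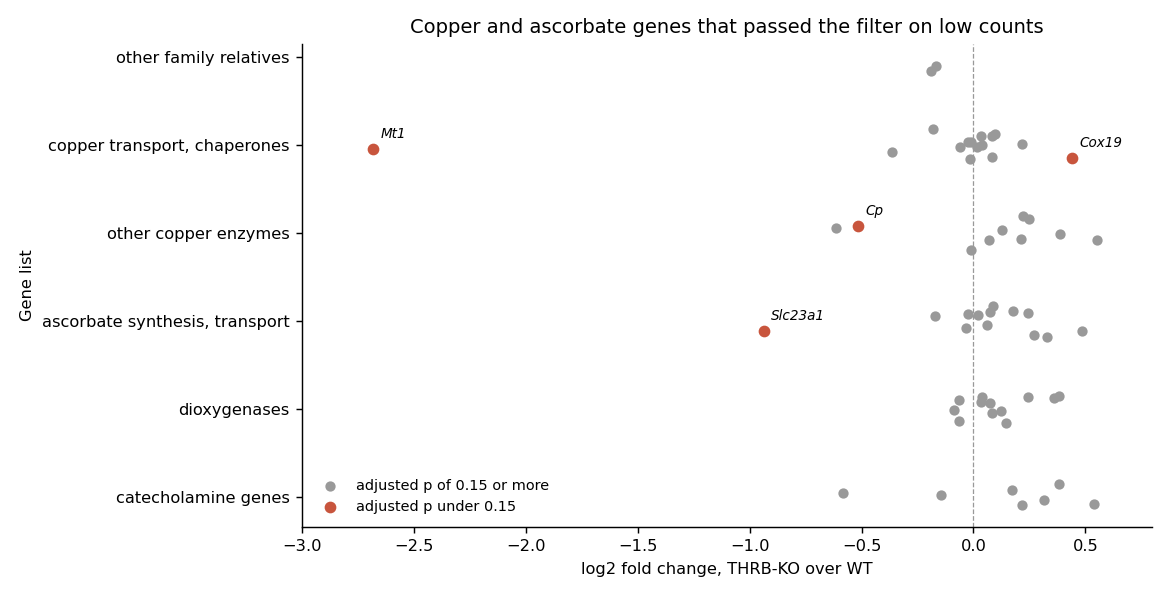
Log2 fold change, THRB-KO over WT (horizontal axis), of each gene that passed the filter in 6 lists (rows), 1 point per gene with vertical scatter for legibility, red at an adjusted p under 0.15. Mt1 at -2.68, Slc23a1 at -0.94, Cp at -0.52 and Cox19 at 0.44 are the called genes, and the other points lie between -0.61 and 0.55.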

How the data were processed

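The authors mapped the reads to mm10 (GRCm38) with HISAT2 2.2.1 and deposited raw counts per gene from HTSeq 0.9.1, in union mode with a minimum alignment quality of 10, without strand, leaving out reads with several positions or several genes, although the library kit was stranded. Such reads are lost to overlapping or near-identical genes. A deposited table of the authors' own edgeR 3.36.0 comparison (fold changes and p-values) was not used.

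Samples were grouped by the genotype in their labels. Counts were analysed in R 4.3.3 with edgeR 4.0.16 (trimmed-mean scaling, robust quasi-likelihood F-test, at least 1 CPM in at least 5 libraries, Benjamini-Hochberg over 12234 genes), as in the study's methods, with DESeq2 1.42.0 and limma 3.58.1 (voom) as alternatives. Other alternatives were another scaling, no filter, an acute-phase covariate, a replicate block and leaving out each library. The fits without THRB-KO 1, 4 and 5 and the adrenal lists were chosen after seeing the data. The scripts were tested on simulated data. Positions and exon lengths come from a GENCODE release on GRCm38, where 260 identifiers had no symbol.

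The genes and lists were chosen with earlier results of these data known. Named genes are the 6 genes, Thrb, the called genes of each list or else the one with the lowest p, tested neighbours within 100 kb and the 3 most similar profiles. 1 listed symbol, Tmlhe, had no match. With 5 libraries per group, 3 counts corresponded to between 0.0993 and 0.117 normalized CPM. Intervals on counts cover counting error only.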

Additional observations from a re-analysis of the deposited data

Results flagged for a closer look

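Among 32 groups of 5 libraries checked for a library far from the rest, 3 had one, where chance alone gives 1.60. Moxd1 in THRB-KO 5 was at 1.10 normalized CPM, with the other knockouts between 0 and 0.225. Dbh in THRB-KO 1 was at 7.36 normalized CPM, with the others between 0 and 0.106. The total count of THRB-KO 2 was 27779196, with the others between 28441288 and 28590704.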

How the results depend on the processing

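The log2 fold changes of Moxd1 and Cyb561, which were chosen by them, ranged from -8.57 to -6.91 and from -1.97 to -1.72 when 1 library was left out. With the acute-phase covariate, where 8 genes were called, they were -5.45 and -1.01, Thrb was at -0.34 and no longer called, and the copper transport, copper enzyme and ascorbate lists had 0 called genes. Cyb561d2 turned to 0.02 (0.0237), Cp to 0.14, Maoa to -0.11, Stx7 to 0.0292, Tanc2 to -0.20 and Dcaf7 to 0.0886, none of them called. The covariate separates the genotypes, and the cause was not tested.

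Pam was called with DESeq2 (0.39), another scaling (0.39), no filter (0.38) and limma-voom (0.40). With 1 library left out its log2 fold change was 0.30 to 0.46, called without WT 1 and not otherwise. Without THRB-KO 1, 4 and 5, chosen after seeing the data, 185 genes were called, Thrb (-0.31, adjusted p = 0.24) was not, Moxd1 was at -9.01, the copper transport and copper enzyme lists had 0 called genes and Tanc2 was at -0.0893. DESeq2 called 885 genes, 2 copper enzymes, 3 ascorbate genes and 1 dioxygenase. Limma-voom called 1 dioxygenase, and no filter gave 2 dioxygenases and 2 copper enzymes. Dcaf7 was at 0.0047 with DESeq2 and with the other scaling.

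Leaving out 1 library gave 227 (without THRB-KO 3) to 673 (without THRB-KO 1) called genes, with 251 without WT 2 and 284 without WT 5, 0 to 2 in copper transport, 0 to 2 copper enzymes, 1 to 2 ascorbate genes, 0 to 1 dioxygenases and 0 to 1 catecholamine genes. Tanc2 then ranged from -0.13 to 0.14 and Dcaf7 from -0.12 to 0.093. The summed count ratio of Moxd1 ranged from 122 (without WT 2) to 398 (without THRB-KO 5). The order of levels is limited by the exon length taken.

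With the replicate number as a block, 348 genes were called, 1 in copper transport, and Pam was at 0.40 and called. The labels do not say whether the numbers pair the mice. Same-numbered samples had correlations of deviations between -0.2 and 0.0091, and 0 of the WT samples correlated best with its own number. Correlations over all genes cannot exclude a pairing. With the block the SE was 0.52 for Moxd1 and 0.15 for Cyb561, against 0.73 and 0.20 without it.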
